A study of Homo sapiens with 6 samples.

Results

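Thioredoxin-interacting protein (TXNIP), 4 further alpha-arrestins (ARRDC1, ARRDC2, ARRDC3 and ARRDC4) and the transcription factors MLXIP (MondoA), MLXIPL (ChREBP) and MLX were followed in cardiomyocytes made from human induced pluripotent stem cells. These 8 genes were taken by symbol from 38557 listed genes, and all 8 symbols had a row in every count table. The set was selected on the CPM (counts scaled to the library total) of each library and on the difference between media, which were already known, so the levels and fold changes of the 8 genes are given as a description, with no p value. The CPM given below, except for the limit on counting error, also carry the TMM scaling factor of each library. RNA was sequenced from 6 cultures of wild-type cardiomyocytes of the established line WTC11. In 3 of them the cells had been kept in RPMI plus B27, a basal medium with a serum-free supplement, and in 3 in DMEM plus fatty acids, with biological replicates numbered 1 to 3 in both media. The labels give no glucose or fatty acid concentration, no time in medium and no age of the cells, and the replicates are cultures of 1 line.

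Alpha-arrestins are adaptor proteins that recruit ubiquitin ligases of the NEDD4 family to membrane proteins, which are then taken up and degraded. TXNIP binds reduced thioredoxin and promotes the internalisation of glucose transporters, and ARRDC4 shares the effect on glucose uptake. MondoA and ChREBP act in the nucleus when glucose phosphates accumulate, and they bind DNA as dimers with MLX at carbohydrate response elements, which consist of paired E-box-like cores. TXNIP and ARRDC4 are textbook targets of MondoA, the paralog that prevails in striated muscle, whereas ChREBP prevails in liver and fat.

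Library totals were 23232324 to 31035389 counts in genes, and 21753 to 23057 genes had a count in a library. A count of 0 in a library allowed up to 3 counts, or 0.0967 to 0.129 CPM, for counting error only. Cardiomyocyte markers were abundant in both media, with 12 markers summing to 30390 to 37618 CPM in RPMI plus B27 and to 24401 to 34202 CPM in DMEM plus fatty acids. The marker sums of some other cell types differed between media. The summed level of 10 fibroblast and stromal markers was 8281, 5325 and 4314 CPM in RPMI plus B27 replicates 1, 2 and 3 and 753, 1950 and 1805 CPM in DMEM plus fatty acids, and 5 of the 10 were called lower (edgeR), as were 1.07% of all genes. DCN, among those called, passed the filter on low counts through its level in RPMI plus B27, and nothing is read from its call. The sum of 6 smooth muscle markers went from 1572 to 1979 CPM down to 316 to 1147 CPM, with 1 marker called lower. That of 8 epicardial markers went from 1974 to 2399 CPM down to 885 to 1098 CPM. Of these 8, 6 were tested and 1 was called lower. Most of the epicardial sum was the keratins KRT8, KRT18 and KRT19. WT1 was at 0.867, 0.340 and 0.485 CPM in RPMI plus B27 and at 0.0861, 0.0669 and 0.148 CPM in DMEM plus fatty acids. The sum of 6 endothelial markers ranged from 37.2 to 240.7 CPM against 115.1 to 463.6 CPM, most of it KDR. Of these 6, 3 were tested, 2 of them with a lower level, and 0 were called. EMCN was at 7.80, 1.32 and 1.23 CPM against 0.301, 0.234 and 0.0296 CPM, and TEK was also lower in DMEM plus fatty acids. CDH5 was at 0.414, 0.340 and 0.0373 CPM in RPMI plus B27 and at 0 in all 3 DMEM plus fatty acids libraries. PECAM1 and VWF were close to 0 in both media. In a bulk sample, fewer cells of a type and less RNA per cell cannot be told apart.

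The promoter sequences of TXNIP, ARRDC4 and ARRDC3 are shown because TXNIP and ARRDC4 had the most negative log2 fold changes of the 8 genes and ARRDC3 the highest. Each run holds the 250 bases before a transcription start of RefSeq, 5′ to 3′ on the gene's strand, with CACGNG cores and CCAAT boxes of either strand in capitals.
TXNIP: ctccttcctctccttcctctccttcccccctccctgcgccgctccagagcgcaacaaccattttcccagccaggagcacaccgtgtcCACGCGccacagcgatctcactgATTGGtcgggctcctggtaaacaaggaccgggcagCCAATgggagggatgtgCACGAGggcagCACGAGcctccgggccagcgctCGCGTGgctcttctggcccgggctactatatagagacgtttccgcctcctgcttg
ARRDC4: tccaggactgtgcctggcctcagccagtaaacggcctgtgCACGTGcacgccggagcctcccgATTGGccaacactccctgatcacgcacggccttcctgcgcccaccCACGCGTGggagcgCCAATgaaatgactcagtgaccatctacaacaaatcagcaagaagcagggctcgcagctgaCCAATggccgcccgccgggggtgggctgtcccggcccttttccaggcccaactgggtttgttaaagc
ARRDC3: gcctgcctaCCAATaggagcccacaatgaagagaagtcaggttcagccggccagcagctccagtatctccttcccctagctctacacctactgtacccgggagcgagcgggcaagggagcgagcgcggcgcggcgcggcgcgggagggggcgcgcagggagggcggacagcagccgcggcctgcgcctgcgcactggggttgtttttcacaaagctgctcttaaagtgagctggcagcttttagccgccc
They lie at chr1:145996580-145996829 on the minus strand, chr15:97960453-97960702 on the plus strand and chr5:91383318-91383567 on the minus strand of GRCh38.p14.

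Motifs were searched on both strands in windows from 250 bases before to 50 bases after each start, in 34941 windows of all genes and in the 11 windows of the 8 genes. The first TXNIP window held 4 E-box-like cores (CACGNG), and the second, at an alternative start, none. A pair of them, 88 to 72 bases before the start, formed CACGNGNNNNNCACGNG, in which 5 bases separate the cores, and only 20 windows of the 34941 (0.0572%) held that arrangement. A looser form, CACGNGNNNNNCNCGNG, occurred in 0.501% of all windows, and among the 11 windows only in that of TXNIP. ARRDC4 had 3 cores, 2 of them overlapping, and the remaining one was a full E-box (CACGTG) 210 bases before the start, and no pair with the 5-base spacing in this window. The MLX window also held a CACGTG, 50 bases before its start, and 7.23% of all windows had one. ARRDC2 had 3 cores at the first of its 2 starts, ARRDC3 had 1 at the second of its 2, and the windows of ARRDC1, MLXIP and MLXIPL had none. Cores were found in 30.5% of all windows and 3 or more of them in 1.97%. Every E-box is also counted as a core. CCAAT, the box bound by NF-Y and searched after the sequences had been seen, occurred 2 times before TXNIP and 3 times before ARRDC4. It also occurred 1 time in a window of each of ARRDC3, ARRDC1, MLXIP, MLX and ARRDC2. Of all windows, 34.6% held a CCAAT and 10.8% held 2 or more. A match is a string of letters and was not tested for binding.

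**Figure D1:**
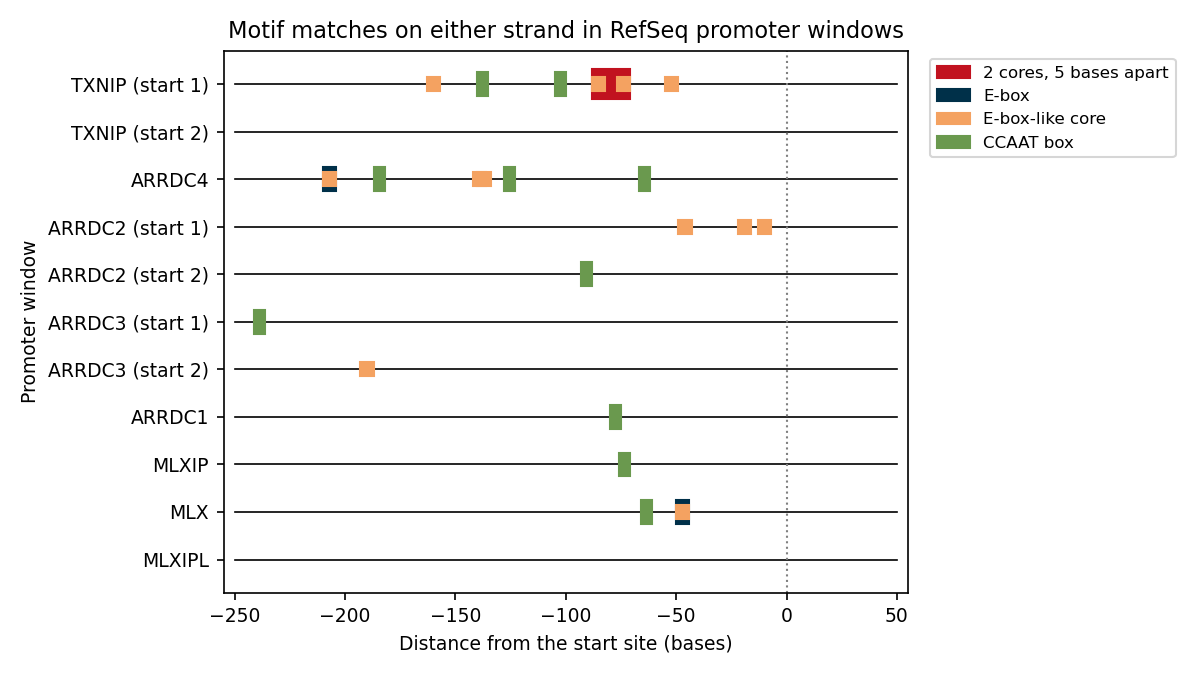
Each line is a promoter window of one of the 8 genes from 250 bases before to 50 bases after a RefSeq start (x axis, bases), and each block is a motif match on either strand. The spaced pair of cores appears in the first TXNIP window alone, while ARRDC4 and the first ARRDC2 window carry 3 cores each.

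TXNIP, at chr1:145992435-145996600 on the minus strand (GENCODE 29, GRCh38), was the member with the largest difference between media. Its level was 273.6, 224.9 and 177.8 CPM in RPMI plus B27 replicates 1, 2 and 3 and 6.54, 12.0 and 12.4 CPM in DMEM plus fatty acids. The lowest RPMI plus B27 library stood 14.3-fold above the highest DMEM plus fatty acids library. The fitted log2 fold change of DMEM plus fatty acids relative to RPMI plus B27 was -4.45 ± 0.30 (SE), which is 21.8-fold lower and the rank 25 from the lowest of 16107 genes tested. Within replicate numbers the log2 ratio was -5.39, -4.23 and -3.84, so replicate 1 gave both the highest level in one medium and the lowest in the other. The fibroblast and stromal sum also had its highest value in RPMI plus B27 replicate 1 and its lowest in DMEM plus fatty acids replicate 1, and its part in the TXNIP difference was not tested. DCN, a stromal marker named after its values were seen, was at 37.9, 22.2 and 11.6 CPM in RPMI plus B27 and at 0, 0.602 and 0.593 CPM in DMEM plus fatty acids. Its deviations from the medium means followed those of TXNIP with an r of 0.993 over the 6 libraries, rank 3 of 10272 genes. DCN is among those genes through its level in RPMI plus B27 alone, and nothing is read from that r. The markers of the list did not all share this order. COL1A1, COL1A2, COL3A1, LUM and FBN1 were, like DCN, highest in RPMI plus B27 replicate 1 and lowest in DMEM plus fatty acids replicate 1. In DMEM plus fatty acids, POSTN and PDGFRA were lowest in replicate 3 and TCF21 in replicate 2. DDR2 was highest in DMEM plus fatty acids replicate 1, at 25.7 CPM against 14.5 and 8.74 CPM in replicates 2 and 3. For the whole fibroblast and stromal sum, the lowest RPMI plus B27 library stood 2.21-fold above the highest DMEM plus fatty acids library. Without RPMI plus B27 replicate 1 the TXNIP log2 fold change was -4.28, and without DMEM plus fatty acids replicate 1 it was -4.21.

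ARRDC4 (chr15:97960698-97973838, plus strand) was measured at 29.9, 40.5 and 40.8 CPM in RPMI plus B27 and at 8.27, 6.22 and 7.32 CPM in DMEM plus fatty acids. The media did not overlap, and the log2 fold change was -2.35 ± 0.19 (SE), or 5.10-fold lower. Replicate 1 stood apart in the opposite sense to TXNIP, since it was the lowest library in RPMI plus B27 and the highest in DMEM plus fatty acids. The log2 ratios within replicate numbers were accordingly -1.86, -2.70 and -2.48, with the smallest difference in replicate 1.

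TXNIP was counted 9.14, 5.56 and 4.36 times for each ARRDC4 count in RPMI plus B27, and 0.792, 1.92 and 1.69 times in DMEM plus fatty acids. That ratio of raw counts within a library does not depend on scaling, and it was lower in every DMEM plus fatty acids library than in every RPMI plus B27 library. The deviations of TXNIP and ARRDC4 from the mean of their medium ran against each other, with a Pearson's r of -0.77 over the 6 libraries, which share replicate numbers and scaling factors. By that measure ARRDC4 stood at rank 9495 of 10272 genes, counted from the gene most like TXNIP. ARRDC4 is among those genes through its level in RPMI plus B27 alone, and nothing is read from that r or rank.

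ARRDC2 (chr19:18001132-18014102, plus strand), a little-studied alpha-arrestin, was the least abundant of the tested members. It had 9.23, 5.53 and 2.61 CPM in RPMI plus B27, from 245, 130 and 70 counts, and 1.59, 1.10 and 1.04 CPM in DMEM plus fatty acids, from 37, 33 and 35 counts. No library of one medium reached into the other, although the lowest RPMI plus B27 library was only 1.64-fold above the highest DMEM plus fatty acids library. The log2 fold change was -2.22 ± 0.48 (SE) and moved between -2.57 and -1.71 when single libraries were left out, the smaller value being that without RPMI plus B27 replicate 1. Its spread within media, 0.68 on the log2 scale, was higher than that of 89.2% of tested genes. In RPMI plus B27 its order over replicates was that of TXNIP and of the fibroblast and stromal sum. In DMEM plus fatty acids ARRDC2 was instead highest in replicate 1, where TXNIP and that sum were lowest. The part of the fibroblast and stromal sum in the ARRDC2 level was not tested.

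ARRDC3 (chr5:91368724-91383359, minus strand), which has been linked to the trafficking of beta-adrenergic receptors, was the only alpha-arrestin with a higher mean in DMEM plus fatty acids in each of the 3 replicate numbers. It was measured at 26.9, 54.0 and 49.4 CPM in RPMI plus B27 and at 43.1, 75.7 and 83.2 CPM in DMEM plus fatty acids. The media overlapped, because replicate 1 was the lowest library of both. Within replicate numbers the log2 ratio was 0.68, 0.49 and 0.75, and the fitted value was 0.63 ± 0.32 (SE). That SE leaves the replicate numbers aside, and the fit blocked on them gave 0.64 ± 0.11 (SE). ARRDC3 gave 0.0982, 0.240 and 0.278 counts per TXNIP count in RPMI plus B27, and 6.59, 6.33 and 6.71 in DMEM plus fatty acids. TXNIP outnumbered ARRDC3 in every RPMI plus B27 library and ARRDC3 outnumbered TXNIP in every DMEM plus fatty acids library.

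ARRDC1 (chr9:137605654-137615360, plus strand), which drives budding of vesicles from the plasma membrane with the ESCRT machinery, had 36.6, 25.6 and 26.8 CPM against 33.7, 26.95 and 30.6 CPM, and a log2 fold change of 0.04 ± 0.18 (SE). The range in DMEM plus fatty acids lay within that in RPMI plus B27, and the sign of the fold change turned in 3 of 12 alternative fits. ARRDC5, the remaining alpha-arrestin and not one of the 8 genes, had 0 counts in all 6 libraries. Antisense transcripts overlap 2 members, and reads cannot be assigned to a strand with certainty, since the strand setting is not given in the sources used here. ARRDC1-AS1 was at 18.8 ± 1.44 and 17.7 ± 1.08 CPM and ARRDC3-AS1 at 2.10 ± 0.61 and 2.23 ± 0.32 CPM in RPMI plus B27 and DMEM plus fatty acids (n = 3 each, SD).

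**Figure D2:**
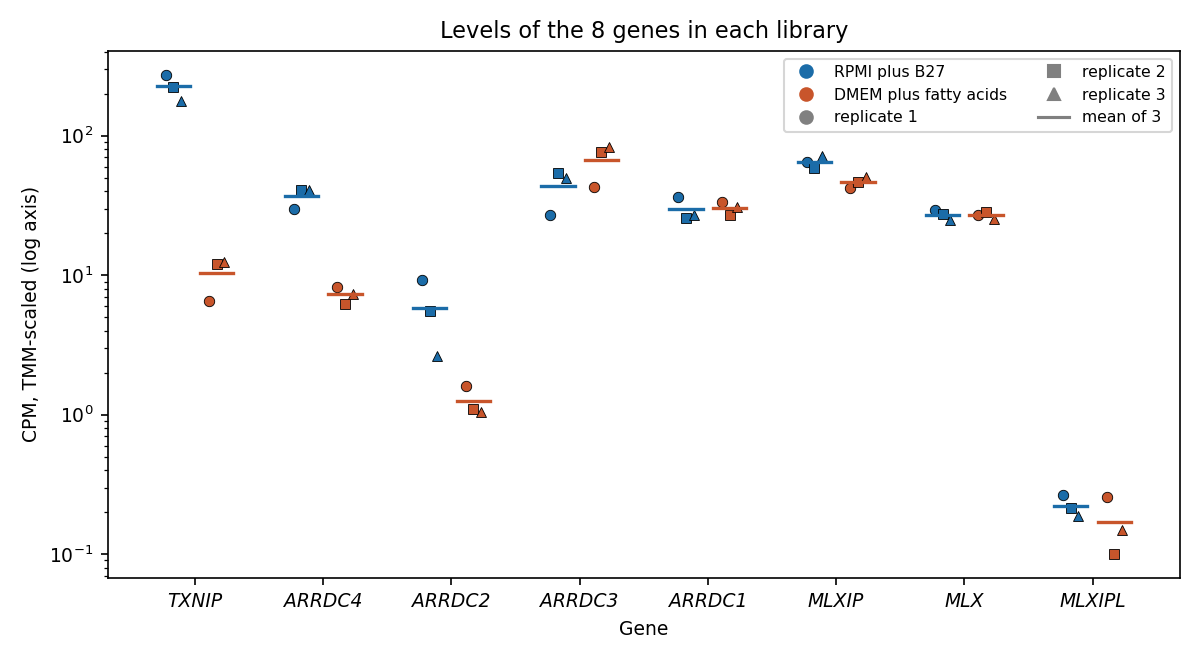
Points are the TMM-scaled CPM of each library on a log axis for the 8 genes on the x axis, marker shapes are replicate numbers, and lines are means of 3. TXNIP, ARRDC4, ARRDC2 and MLXIP show no overlap between media, whereas ARRDC3, ARRDC1, MLX and MLXIPL do.

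Among the glucose-sensing factors, MLXIP (chr12:122078722-122147347, plus strand) had 64.5, 58.5 and 72.1 CPM in RPMI plus B27 and 42.4, 46.7 and 50.8 CPM in DMEM plus fatty acids. The media did not overlap, and the log2 fold change was -0.48 ± 0.13 (SE), with log2 ratios of -0.61, -0.32 and -0.50 within replicate numbers. MLX (chr17:42567068-42573239, plus strand), the shared dimer partner, was at 29.3, 27.2 and 24.9 CPM against 27.1, 28.5 and 25.2 CPM, a log2 fold change of -0.01 ± 0.13 (SE), or 0.09 under scaling by total counts. MLX kept the negative sign in 8 of 12 alternative fits. Its spread within media, 0.10 on the log2 scale, was above that of only 9.25% of tested genes. MLX overlaps PSMC3IP on the other strand, which was at 3.47 ± 1.41 and 2.85 ± 1.61 CPM (n = 3 each, SD).

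MLXIPL (chr7:73593194-73624543, minus strand) was close to the detection limit in both media. It had 7, 5 and 5 counts in RPMI plus B27 and 6, 3 and 5 counts in DMEM plus fatty acids, or 0.221 ± 0.0393 and 0.169 ± 0.0810 CPM (n = 3 each, SD). It did not pass the filter on low counts, so 7 of the 8 genes were tested, and at this depth no difference between media was detectable. Its paralog MLXIP thus had the higher level of the pair in every library.

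**Figure D3:**
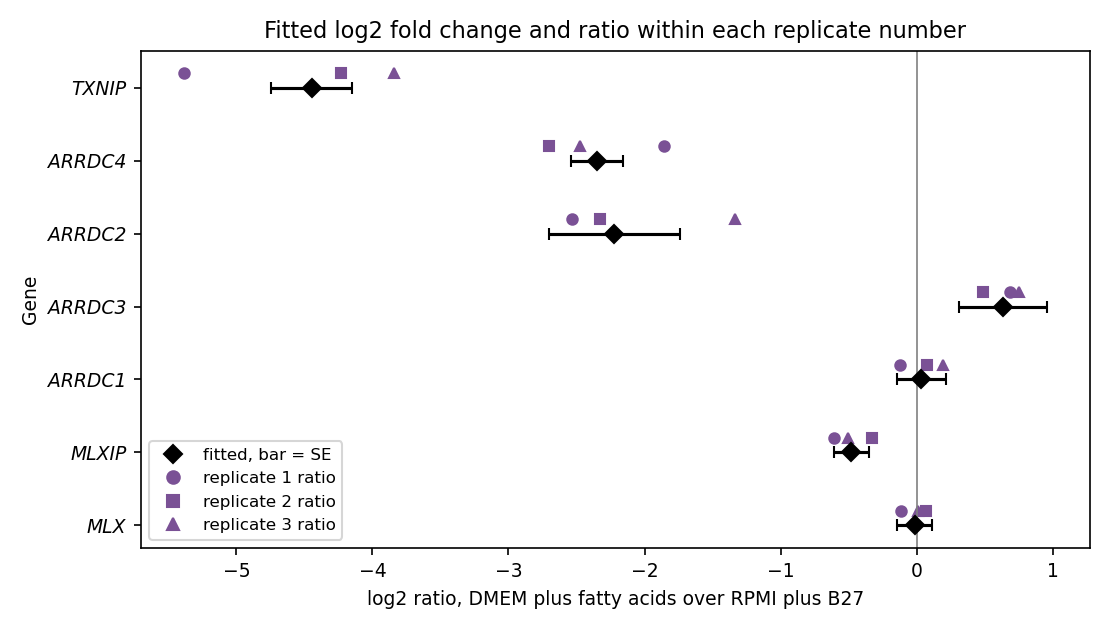
Diamonds give the fitted log2 fold change of the 7 tested genes (x axis, negative where lower in DMEM plus fatty acids) with its SE, and purple markers the log2 ratio within each replicate number. All 3 ratios are negative for TXNIP, ARRDC4, ARRDC2 and MLXIP and positive for ARRDC3, and they lie on both sides of 0 for ARRDC1 and MLX.

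Of the 7 tested genes, 2 (TXNIP and ARRDC4, both lower) had an adjusted p under 0.05, as had 1.36% of all 16107 genes, 0.292% higher and 1.07% lower (edgeR quasi-likelihood test, Benjamini-Hochberg). Between media 4 did not overlap, all lower, as did 25.6% of all genes, 12.8% in each direction. A fit blocked on replicate number passed 4 of the 7 (TXNIP, ARRDC4 and ARRDC2 lower, ARRDC3 higher), against 4.78% of all genes, 1.36% higher and 3.42% lower. The call of ARRDC4 was lost without RPMI plus B27 replicate 2 and without DMEM plus fatty acids replicate 3. That of TXNIP was lost in no fit that left out 1 library. The same contrast was in view when the genes were chosen. Nothing is therefore read from these counts, or from which calls were kept or lost.

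Levels of different genes were compared as CPM per kb of the longest coding transcript in GENCODE 29. In RPMI plus B27, TXNIP led with 77.0 ± 16.4 CPM per kb (SD, n = 3), followed by ARRDC1 with 18.7 ± 3.80. MLX, ARRDC3, ARRDC4 and MLXIP followed at 10.5 ± 0.84, 10.4 ± 3.47, 9.10 ± 1.52 and 7.71 ± 0.81 CPM per kb, and the library ranges of neighbours among these 4 overlapped. ARRDC2 (2.29 ± 1.31) and MLXIPL (0.0674 ± 0.0120) came last. In DMEM plus fatty acids the order was ARRDC1 at 19.2 ± 2.12, ARRDC3 at 16.1 ± 5.08 and MLX at 10.4 ± 0.65 CPM per kb, where neighbours overlapped, and then MLXIP at 5.53 ± 0.50, TXNIP at 3.52 ± 1.11 and ARRDC4 at 1.79 ± 0.25. ARRDC2 (0.492 ± 0.120) and MLXIPL (0.0515 ± 0.0247) were again last. TXNIP thus held place 1 of 8 in one medium and place 5 in the other. The places of the middle genes depended on the length used. Per kb of all annotated exons in RPMI plus B27, ARRDC4 stood at place 2 instead of 5 and MLX at place 5 instead of 3, with overlapping neighbours between them. ARRDC1, per kb of all exons, was at 7.76 ± 1.58 in RPMI plus B27, place 4, and 7.96 ± 0.88 in DMEM plus fatty acids, place 2 after ARRDC3 (13.7 ± 4.32).

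The 5 alpha-arrestins together amounted to 117.5 ± 16.8 CPM per kb in RPMI plus B27 and to 41.1 ± 4.60 in DMEM plus fatty acids (n = 3 each, SD). TXNIP made up 69.8%, 65.1% and 60.5% of that sum in RPMI plus B27 and 6.14%, 9.95% and 9.28% in DMEM plus fatty acids. ARRDC3 went from 4.79%, 10.9% and 11.7% to 28.3%, 44.0% and 43.5%, and ARRDC1 from 17.2%, 13.7% and 16.8% to 58.3%, 41.3% and 42.4%. The share of ARRDC1 was thus higher although its level differed by less than its spread. ARRDC4 held 7.95% ± 2.27 and 4.41% ± 1.01, and ARRDC2 1.87% ± 0.85 and 1.23% ± 0.44, with overlapping libraries in both cases. Per kb of all exons the TXNIP share was 69.3% ± 5.87 and 10.5% ± 1.96. By that length ARRDC1 held 8.70% ± 1.17 and 30.9% ± 8.37, and ARRDC3 10.2% ± 4.14 and 50.6% ± 8.96. Which of ARRDC1 and ARRDC3 had the larger mean share in DMEM plus fatty acids thus depended on the length used.

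**Figure D4:**
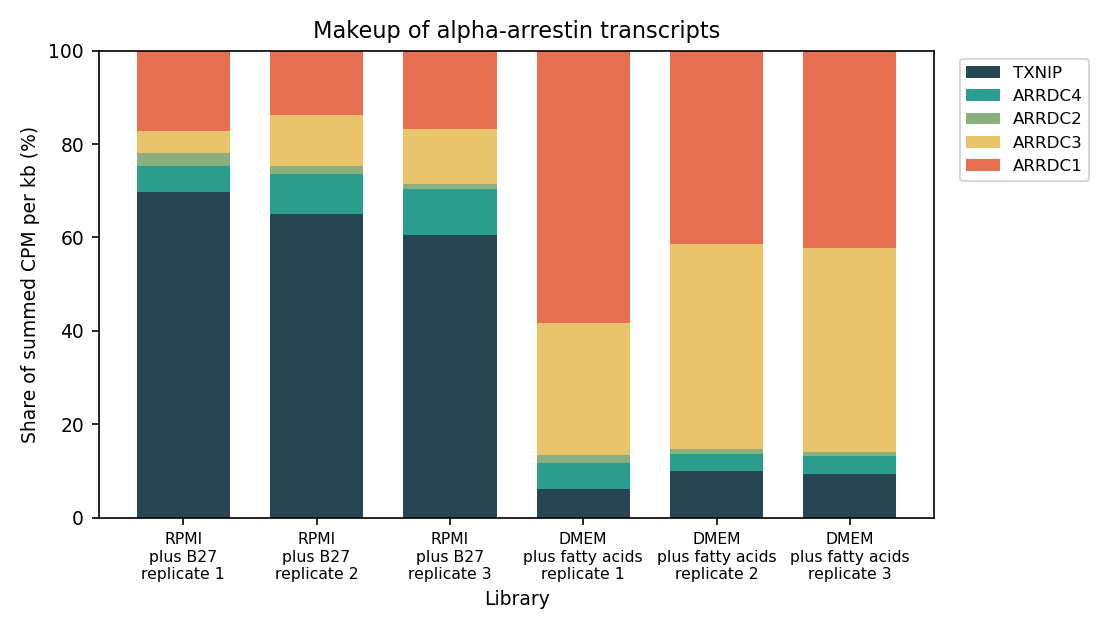
Bars show, for each library, the share (%) of the summed CPM per kb of 5 alpha-arrestins held by each gene. TXNIP takes 60.5% to 69.8% in RPMI plus B27 and 6.14% to 9.95% in DMEM plus fatty acids, where ARRDC3 and ARRDC1 take most of the sum.

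The genes whose log2 CPM was most like that of TXNIP over the 6 libraries, among 10272 genes with at least 10 CPM in a medium, were TAGLN2 (transgelin 2, an actin-binding protein, r = 0.997), CCND1 (cyclin D1, 0.996), SPRYD3 (0.995), IGFBP7 (a secreted growth factor binding protein, 0.994) and PPME1 (a demethylase of protein phosphatase 2A, 0.994). TAGLN2 was at 28.2 ± 4.76 and 3.57 ± 0.97 CPM, and IGFBP7 at 230.2 ± 41.9 and 72.8 ± 11.3 CPM, in RPMI plus B27 and DMEM plus fatty acids (n = 3 each, SD). CCND1 resembled TXNIP in shape only, with 232.8 ± 1.93 and 161.0 ± 7.56 CPM. Of the members, ARRDC4 (r = 0.96) stood at rank 119, MLXIP (0.91) at rank 345 and ARRDC3 (-0.55) at rank 7642. TAGLN2 and ARRDC4 had a mean of at least 10 CPM in RPMI plus B27 alone, and nothing is read from their r or rank. The 6 libraries fall into 2 media and share scaling factors, and an r of at least 0.9 was reached by 3.82% of the genes. Over deviations from the medium means, r with TXNIP was 0.84 for CCND1 and 0.95 for IGFBP7, the lowest and highest of these 5.

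Genes that act with the alpha-arrestins were examined in 9 lists of 112 genes in all, of which 111 had a row and 96 were tested. Only PFKFB3 of the 96 passed over all genes tested (1.36% of all genes did), and 21 had an unadjusted p under 0.05, as had 17.7% of all genes, the share against which the unadjusted counts of each list are to be read. Their median log2 fold change was -0.01, against 0.01 for all genes. Scaling by total counts moved the medians to 0.10 and 0.12, and the medians of 5 lists (arrestin-fold, MAX and MLX network, NEDD4 family, AMPK and ESCRT) from below to above 0. With the block 7 passed, 2 higher and 5 lower, against 4.78% of all genes (1.36% higher and 3.42% lower). Genes named only for this block result (PFKFB2, HK2 and SLC2A11), and TXN, ITCH and the neighbouring genes, were chosen after their values were seen.

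Carbohydrate response targets other than the alpha-arrestins did not share one direction. Of 20, 14 were tested, with a median log2 fold change of 0.23, 9 positive and 5 negative values. PFKFB3, a kinase that raises glycolytic flux, fell from 60.4 ± 15.6 to 22.5 ± 5.43 CPM (log2 fold change -1.43 ± 0.25, SE, edgeR adjusted p 0.0471), and its libraries did not overlap. The adjusted p ran from 0.0701 to 0.123 without any one of the 6 libraries and was 0.0173 with the block. HK2 (hexokinase 2) was at 449.2, 186.2 and 122.4 CPM against 113.1, 58.2 and 43.0 CPM, with an edgeR adjusted p of 0.154 and, with the block, 0.00642. PFKFB2, the heart-type relative of PFKFB3, was at 31.1 ± 7.27 and 58.7 ± 5.11 CPM (0.92 ± 0.19, edgeR adjusted p 0.0732 and, with the block, 0.0236).

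Glucose transporters, the cargo of TXNIP and ARRDC4, had 0 of 9 tested members called, 3 at an unadjusted p under 0.05, and a median log2 fold change of -0.27. With the block 3 passed, 1 higher and 2 lower, against 4.78% of all genes. SLC2A1 (GLUT1) was at 659.5, 303.1 and 316.0 CPM in RPMI plus B27 and at 167.7, 71.9 and 100.5 CPM in DMEM plus fatty acids (edgeR adjusted p 0.0786 and, with the block, 0.00613). SLC2A3 (GLUT3) was at 343.0 ± 145.0 and 122.0 ± 10.8 CPM (edgeR adjusted p 0.0609 and, with the block, 0.0258), and was called without RPMI plus B27 replicate 3. SLC2A11 was at 19.4 ± 0.33 and 30.5 ± 3.76 CPM (edgeR adjusted p 0.0808 and, with the block, 0.0492).

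The thioredoxin, peroxiredoxin and glutaredoxin genes showed no called member among 22, 5 at an unadjusted p under 0.05 and a median log2 fold change of 0.08. TXN, the thioredoxin that TXNIP binds, was at 29.7, 38.0 and 36.5 CPM against 29.9, 33.1 and 35.4 CPM, and its log2 fold change was -0.08 ± 0.14 (SE), which became 0.029 under scaling by total counts. The smallest p values of the list belonged to PRDX4 (an endoplasmic reticulum peroxiredoxin, -0.48 ± 0.11, edgeR adjusted p 0.0948) and NXN (nucleoredoxin, -0.46 ± 0.14, adjusted p 0.160).

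NEDD4-family ligases and their adaptors had 0 of 10 tested genes called, 1 at an unadjusted p under 0.05, and a median of -0.04. ITCH, a ligase that ubiquitinates TXNIP, was at 107.5 ± 14.6 and 87.0 ± 10.9 CPM (log2 fold change -0.31 ± 0.15, edgeR adjusted p 0.330). SMURF2 had -0.33 ± 0.11 (adjusted p 0.190) and WWP2 0.34 ± 0.16 (adjusted p 0.328). ESCRT genes used by ARRDC1 had 0 of 12 called and 2 at an unadjusted p under 0.05, with VPS37B at -0.37 ± 0.13 and VPS37D at -0.73 ± 0.30 (edgeR adjusted p 0.201 and 0.261). Subunits of AMPK, a kinase that phosphorylates TXNIP, and of the LKB1 complex had 0 of 9 called and 1 at an unadjusted p under 0.05. PRKAA1 had 0.31 ± 0.12 and PRKAA2 -0.45 ± 0.30 (edgeR adjusted p 0.235 and 0.482).

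Factors of the MAX and MLX network had 0 of 10 called and 2 at an unadjusted p under 0.05. MXI1 was at 79.9 ± 28.6 and 49.6 ± 4.0 CPM (edgeR adjusted p 0.213), and MYCN at 28.7 ± 13.5 and 12.6 ± 6.36 CPM (0.272 and, with the block, 0.0237). Of the other arrestin-fold genes 0 of 6 tested were called and 1 had an unadjusted p under 0.05. ARRB2 (beta-arrestin 2) had -0.82 ± 0.32 and RGP1 -0.21 ± 0.10 (edgeR adjusted p 0.244 and 0.317), while SAG, the rod arrestin, had no count in any library. Inflammasome genes, to which TXNIP has been linked, were scarce. Of 8, 4 passed the filter, 0 were called and 1 had an unadjusted p under 0.05. That gene, IL18, passed the filter through RPMI plus B27 alone, and nothing is read from its p. IL18 was at 0.685 ± 0.163 and 0.106 ± 0.0889 CPM (edgeR adjusted p 0.0808), and CASP1 at 0.720 ± 0.625 and 0.438 ± 0.283 CPM (0.644). With at least 10 counts in every library, 2 inflammasome genes were tested and 0 had an unadjusted p under 0.05.

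**Figure D5:**
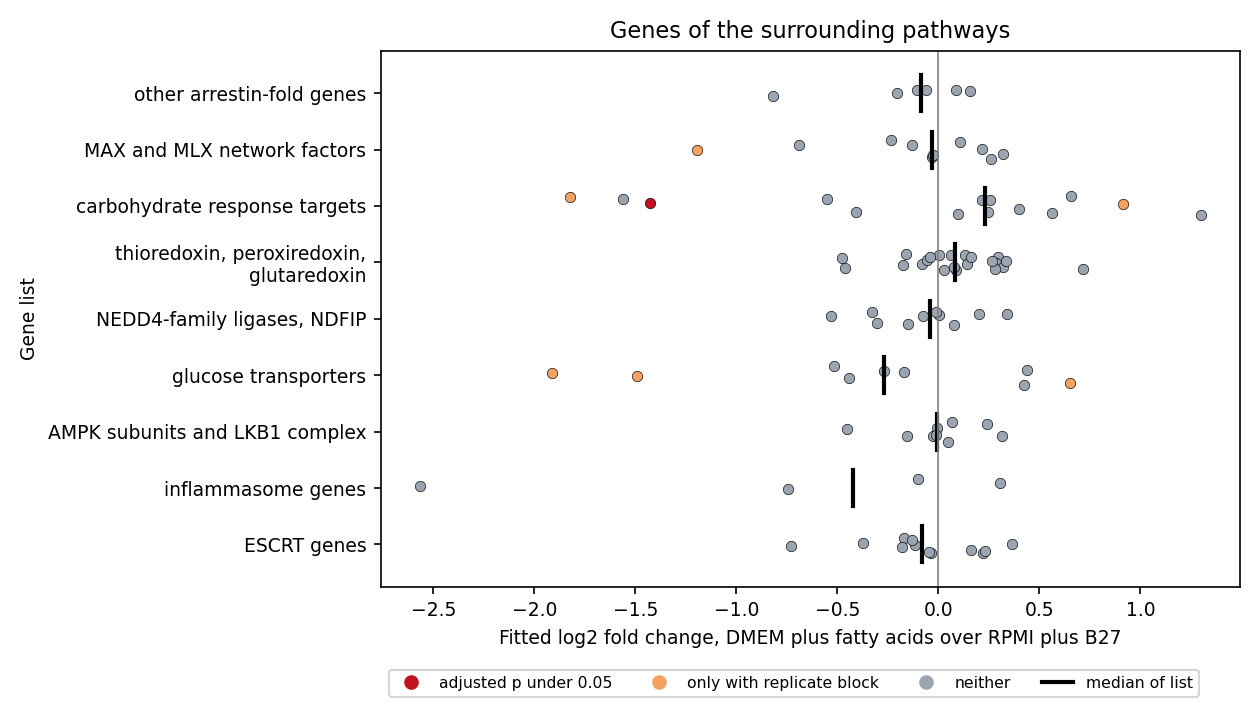
Each point is the fitted log2 fold change (x axis) of a tested gene in one of 9 pathway lists, coloured by whether it passed without the replicate block, with it, or in neither fit, and black bars are list medians. PFKFB3 is the single gene that passed without the block, and list medians lie between -0.42 and 0.23.

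The nearest coding genes on either side of TXNIP were read as well. POLR3GL, 13586 bases away, was at 28.3 ± 4.85 and 21.7 ± 3.65 CPM (log2 fold change -0.39 ± 0.19, edgeR adjusted p 0.335). HJV, 20867 bases away on the other side, was at 2.39 ± 1.12 and 5.78 ± 2.63 CPM (1.27 ± 0.46, edgeR adjusted p 0.215 and, with the block, 0.0353), in the direction opposite to TXNIP.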

How the data were processed

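Stranded mRNA libraries were sequenced, per the labels' protocols. The authors deposited raw counts by gene symbol in 1 table per library, made with STAR and HTSeq on hg38, per the submitters' processing notes. Versions, gene annotation and strand setting are not given in the sources used here. The 5 summary rows were left out of library sizes and tests; genes held 84.4% to 87.2% of each table, reads assigned to more than 1 gene 3.90% to 4.15%, and reads aligned to several places 3.05% to 4.10%.

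The test was that of edgeR 4.0.16 under R 4.3.3 (filterByExpr defaults, minimum count 10 and minimum total 15; TMM; quasi-likelihood test over all 6 libraries; Benjamini-Hochberg, threshold 0.05). It was also run on simulated counts with the same spread for every gene and no replicate effect. These data differ on both points, so that run cannot vouch for the test here. DESeq2 1.42.0, other scalings and filters, the replicate number as a block and each library left out were alternatives. SE is that implied by the F statistic, from the fit without the replicate block unless stated. Every pair of libraries differed beyond sampling noise (smallest chi-square per degree of freedom 32.2). Replicate numbers come from the titles. Deviations of same-numbered libraries from their medium means correlated at 0.31, 0.43 and 0.37 and those of other pairs at -0.24 to -0.14, so the numbers were taken to pair the libraries; what a number stands for is not in the labels, and p values measure the spread between these cultures.

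Members and lists were chosen with earlier results of these data known. Named genes are the 8 members, ARRDC5, the 5 genes most like TXNIP by Pearson's r of log2 CPM (prior count 2), and from each list the called genes or, with none, the 2 with the smallest p. 1 list symbol matched no row. Genes outside that rule are named as such, are neighbours and antisense partners of members, or are cell type markers. Single markers were named after their values were seen. Promoters are from RefSeq (GRCh38.p14), gene positions and lengths from GENCODE 29.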

Additional observations from a re-analysis of the deposited data

How the results depend on the processing

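Without the replicate block 219 genes were called, 47 higher and 172 lower, and with it 770 (219 higher, 551 lower). The DESeq2 Wald test called 1212 (386 and 826), no filter beyond 1 count 539 (126 and 413), at least 10 counts in every library 119 (29 and 90), and total-count scaling 202 (74 and 128). Leaving out 1 library gave 3 to 131 calls, 1 to 9 higher and 2 to 122 lower. The fits without DMEM plus fatty acids replicate 3 (3 calls) and RPMI plus B27 replicate 2 (4 calls) gave the fewest. Against 1 pathway gene called, there were 7 with the replicate block, 9 by DESeq2, 4 without a filter, 2 under total-count scaling, 0 with at least 10 counts in every library, and 0 to 1 without single libraries.

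TXNIP kept a log2 fold change of -4.59 to -4.21 over 12 alternatives, ARRDC4 -2.48 to -2.24, ARRDC3 0.38 to 0.87 and MLXIP -0.55 to -0.37. Of 84 member values under alternatives, 83 moved by less than the spread between replicates. The exception was MLX, 0.09 under total-count scaling, which shifts the median of all genes from 0.01 to 0.12. Signs changed in 6 of 382 values of other named genes: TXN was 0.029 and ARRDC1-AS1 0.016 under total-count scaling, CASP1 0.24 without RPMI plus B27 replicate 1 (-1.29 to 0.24 over single libraries left out), ARRDC3-AS1 -0.078 without RPMI plus B27 replicate 1 and -0.031 without DMEM plus fatty acids replicate 1 (-0.078 to 0.34), and PSMC3IP 0.10 without RPMI plus B27 replicate 3 (-0.84 to 0.10). The cause was not tested. Of the 5 genes most like TXNIP, 0 were among the 78 with a Spearman's rho of 1, and 0 among the 5 most alike by deviations from the medium mean. The replicate block changed no member's direction.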
